A study of Homo sapiens with 6 samples.

Results

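The tensins and focal adhesion adaptors described here are 10 genes, TNS1, TNS2, TNS3, TLN1, VCL, ZYX, PXN, ILK, PARVA and BCAR1, out of 19937 genes counted by RNA-seq in U2OS cells, an established human osteosarcoma line. The genes were named by their known roles and chosen by a rule that also used this very comparison, in which TNS1 ranked among the genes with the highest fold change, so their values in it are given as a description, without p-values. The 6 libraries came from cells stably expressing an shRNA against SQLE (shSQLE, genotype SQLE-shRNA, 3 libraries) or a scrambled shRNA (shControl, 3 libraries). SQLE encodes squalene epoxidase, an enzyme of cholesterol synthesis. Both groups carried a lentiviral pGIPZ construct and had been selected for 2 weeks in puromycin at 2 μg/mL, so that selection is shared by the controls. The labels name neither the hairpin used nor whether the replicates came from separate cultures, so that the spread between libraries may be technical.

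Focal adhesions are the contact sites at which integrins, the receptors for extracellular matrix, are tied to actin filaments. Talin binds the integrin tail and recruits vinculin as force is applied, ILK and the parvins form a second link to actin, and paxillin and BCAR1 are scaffolds that tyrosine kinases phosphorylate. Zyxin joins as the contact matures, and tensins bind both integrin tails and actin and mark the elongated fibrillar adhesions that slide towards the cell centre. In mesenchymal cells such as osteosarcoma lines these proteins carry spreading, migration and the sensing of matrix stiffness.

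SQLE itself checked the labels: its normalized counts (counts scaled to an effective library size by TMM) were 1349, 1867 and 1924 in shControl and 229, 204 and 219 in shSQLE. Total counts per library ran from 12212378 to 14393292. The mesenchymal markers VIM (2433 to 2835 TPM, counts per length scaled to the same sum in each library) and CDH2 (33.4 to 70.3 TPM) were found in every library, with RUNX2 at 3.38 to 6.57 TPM. SPARC was lower in every shSQLE library (202, 203 and 223 TPM) than in shControl (226, 284 and 295 TPM), as was COL1A1 (2.28 to 2.76 against 3.54 to 4.34 TPM). The summed TPM of the 7 mesenchymal markers was 2703 to 3074 in shControl and 2974 to 3079 in shSQLE. Most of this sum was VIM, which was higher in every shSQLE library (2732 to 2835 against 2433 to 2713 TPM). CDH2 was at 37.6, 66.6 and 70.3 TPM in shControl and at 36.1, 33.4 and 47.3 TPM in shSQLE. The groups overlapped for CDH2 and for RUNX2. COL1A2 and ALPL, bone lineage genes, were at or near 0, as were the epithelial markers CDH1 and KRT5. Of the blood cell markers, PTPRC and CD3E had no counts, while CD68 lay at 0.27 to 0.85 TPM. Of the endothelial markers, PECAM1 lay at 0.05 to 0.35 TPM, and CDH5 and VWF at 0 to 0.03 TPM. EPCAM, an epithelial marker, lay at 4.23 to 5.48 TPM in shControl and higher, at 5.68 to 6.48 TPM, in every shSQLE library. The part of these markers in the members' values was not tested. shControl replicate 1 stood apart from the other controls. The chi-square statistic of its counts was 53.9 and 63.6 per degree of freedom against replicates 2 and 3, and 2.83 between those. The shSQLE libraries were not alike either. Their replicate 3 had 9.73 and 15.7 against replicates 1 and 2, beside 3.385 between those. As shControl replicate 1 differed most, the members' fold changes are also given without that control.

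Upstream sequences of the 3 members with the highest fold change are shown first, as stretches where regulators of these genes could bind. The RefSeq list of start sites (GRCh38.p14) held 22 windows for the members, each with 250 bases before and 50 after a start. The entry for PARVA was missing. On either strand, GGAATG, the element that TEAD factors bind, was found in 4 of the 22 windows (2 of TNS1, 1 of VCL and 1 of PXN) and in 14.03% of all 35116 windows. TGANTCA, the AP-1 site, was found in 1 of the 22 (BCAR1) and in 7.709% of all. The CArG box of SRF was in 0 of the 22 and in 1.293% of all windows. The 4 upstream sequences below, with GGAATG or TGANTCA in capitals (CATTCC is GGAATG read on the other strand), leave out bases within annotated exons. They were picked because they hold one of these elements. Most windows of TNS1 and most of BCAR1 hold neither element and are not printed. Both printed TNS1 windows lie inside the TNS1 gene, upstream of internal start sites.
TNS1 chr2:217944129-217944320, minus strand: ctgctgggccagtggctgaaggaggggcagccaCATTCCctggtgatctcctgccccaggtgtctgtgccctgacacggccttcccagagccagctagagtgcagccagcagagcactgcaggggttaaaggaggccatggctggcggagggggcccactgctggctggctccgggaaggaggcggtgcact
TNS1 chr2:217920237-217920486, minus strand: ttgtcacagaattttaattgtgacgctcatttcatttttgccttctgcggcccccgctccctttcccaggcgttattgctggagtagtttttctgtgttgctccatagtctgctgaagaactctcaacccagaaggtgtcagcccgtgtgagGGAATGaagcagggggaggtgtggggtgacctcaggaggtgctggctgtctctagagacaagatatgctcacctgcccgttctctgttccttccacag
VCL chr10:73997866-73998113, plus strand: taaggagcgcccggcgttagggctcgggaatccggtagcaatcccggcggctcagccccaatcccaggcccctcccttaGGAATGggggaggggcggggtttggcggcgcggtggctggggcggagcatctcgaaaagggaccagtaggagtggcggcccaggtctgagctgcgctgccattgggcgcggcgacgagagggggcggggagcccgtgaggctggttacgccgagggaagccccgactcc
BCAR1 chr16:75268054-75268257, minus strand: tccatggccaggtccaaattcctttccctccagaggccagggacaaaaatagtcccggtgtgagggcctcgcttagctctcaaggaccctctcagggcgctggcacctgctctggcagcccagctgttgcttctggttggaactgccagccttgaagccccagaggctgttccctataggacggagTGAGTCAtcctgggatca
The element begins 217 and 98 bases before the start in the TNS1 windows, 171 bases before it in VCL and 64 bases before it in BCAR1. Gene-level counts do not tell which start was used, and a match describes only the letters.

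TNS1 was higher in every shSQLE library, whereas the other 9 members differed less. The median log2 fold change of the members was 0.00 and that of all 12450 genes tested was -0.01. The log2 fold changes of the members other than TNS1 ran from -0.36 to 0.39, and 6 of the 10 members lay within 0.1 of 0. All 10 passed the filter on low counts. At an adjusted p under 0.05 in edgeR's quasi-likelihood test, 1 member was called, against 3.21% of all genes (400 genes), and in the higher direction 1 member against 0.369% (46 genes). The libraries of the groups did not overlap for 2 members, TNS1 and PXN, beside 22.1% of all genes. As the rule used this contrast, nothing is read from these counts. In bulk RNA, fewer cells that express a gene and less RNA per cell cannot be told apart.

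**Figure D1:**
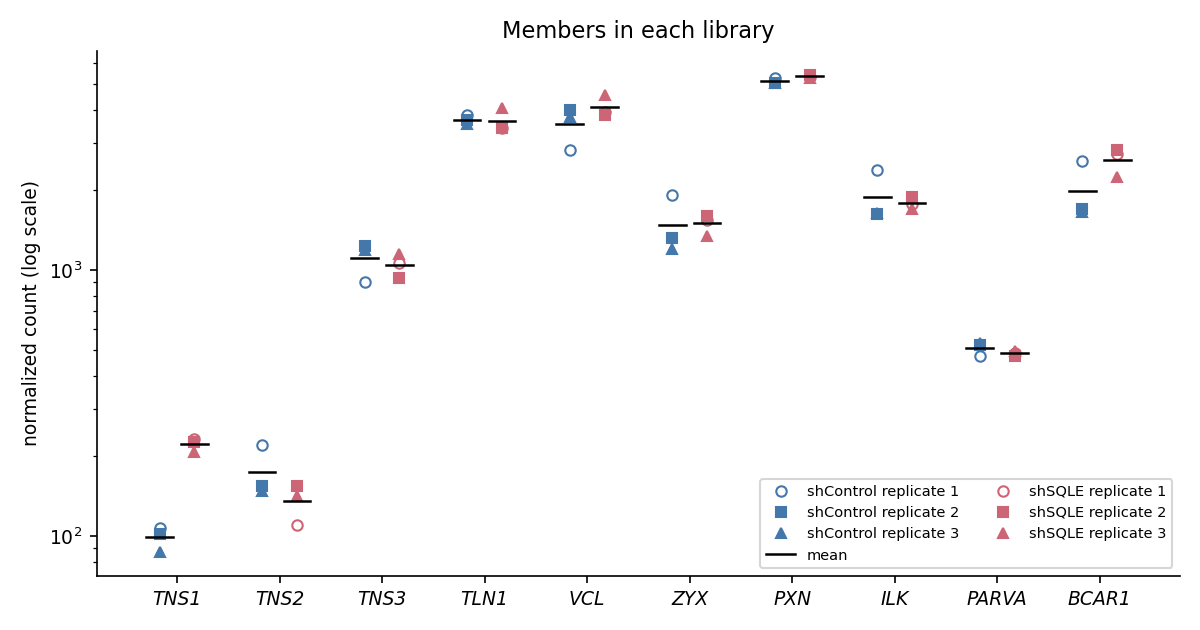
Normalized counts (log scale) of the 10 members in each library, shControl in blue and shSQLE in red, one symbol for each replicate, with the group mean as a bar. TNS1 is the gene with a clear gap, 87.3 to 107 in shControl and 207 to 231 in shSQLE, and the open blue circles of shControl replicate 1 lie apart from the other controls for TNS2, TNS3, VCL, ZYX, ILK and BCAR1.

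Among the tensins, TNS1 (ENSG00000079308, chr2:217799588-218033982, hg38, minus strand) encodes an adaptor of fibrillar adhesions that binds actin and integrin tails. Its normalized counts were 107, 102 and 87.3 in shControl and 231, 226 and 207 in shSQLE. The groups did not overlap, and the mean rose from 99.0 ± 10.4 to 221 ± 12.9 (SD, n = 3 each), 2.23-fold. The log2 fold change was 1.16 (SE 0.15), the 14th highest of all genes tested. It ranged from 1.09 to 1.26 over 13 other ways of fitting the data, and the call was lost in 1 of them, without shSQLE replicate 1. The gene overlaps only non-coding genes, which were not counted.

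TNS2 (ENSG00000111077, chr12:53046969-53064379) encodes a tensin that also carries a phosphatase-like domain. Its normalized counts were 219, 155 and 147 in shControl and 110, 155 and 142 in shSQLE, a log2 fold change of -0.36 (SE 0.21). The groups overlapped, and without shControl replicate 1, the highest library, the log2 fold change was -0.16. TNS2 overlaps SPRYD3 on the opposite strand, which had 2911 counts against 918 for TNS2, and whether strand was used in counting is not stated. TNS3 (ENSG00000136205, chr7:47275154-47582558), a tensin of broad expression, had normalized counts of 898, 1234 and 1185 in shControl and 1059, 931 and 1149 in shSQLE. These groups overlapped too, with shControl replicate 1 lowest, at a log2 fold change of -0.08 (SE 0.15) and of -0.21 without that library.

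Because genes are compared in level only per length, the tensins were set side by side in TPM. In shControl the levels were 21.6 ± 6.04 TPM for TNS3, 5.12 ± 0.398 for TNS2 and 1.39 ± 0.127 for TNS1 (SD, n = 3). In shSQLE they were 19.2 ± 3.38 TPM for TNS3, 3.86 ± 0.714 for TNS2 and 2.96 ± 0.095 for TNS1. TNS1 was the lowest tensin of the members in both groups, and in shSQLE its highest library, 3.02 TPM, lay just under the lowest of TNS2, 3.05 TPM. TNS1 took 5.81%, 4.72% and 4.26% of the summed TPM of the 4 tensins in shControl and 11.98%, 12.34% and 9.90% in shSQLE. The share of TNS1 thus went from 4.93% ± 0.798 to 11.4% ± 1.32 with no overlap between groups. The summed tensin TPM overlapped between the groups, at 28.8 ± 5.80 in shControl and 26.2 ± 3.73 in shSQLE, and TNS3 held 74.1% ± 6.92 and 72.9% ± 3.19 of it.

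TNS4, the short tensin without an actin-binding region, is not a member, and its p-values are given. It belongs to a list that was chosen with earlier results of these data known. It was sparse, with normalized counts of 20.8, 21.7 and 15.7 in shControl and 9.79, 2.96 and 6.17 in shSQLE. All shSQLE libraries lay below the controls, but the log2 fold change of -1.60 (SE 0.41) missed the threshold at an adjusted p of 0.0948 in edgeR's test. It passed in 2 alternatives, with offsets for GC content and transcript length (adjusted p = 0.0234) and without shControl replicate 1 (adjusted p = 0.022), both by edgeR. Those fits called 17.5% and 33.9% of all genes.

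**Figure D2:**
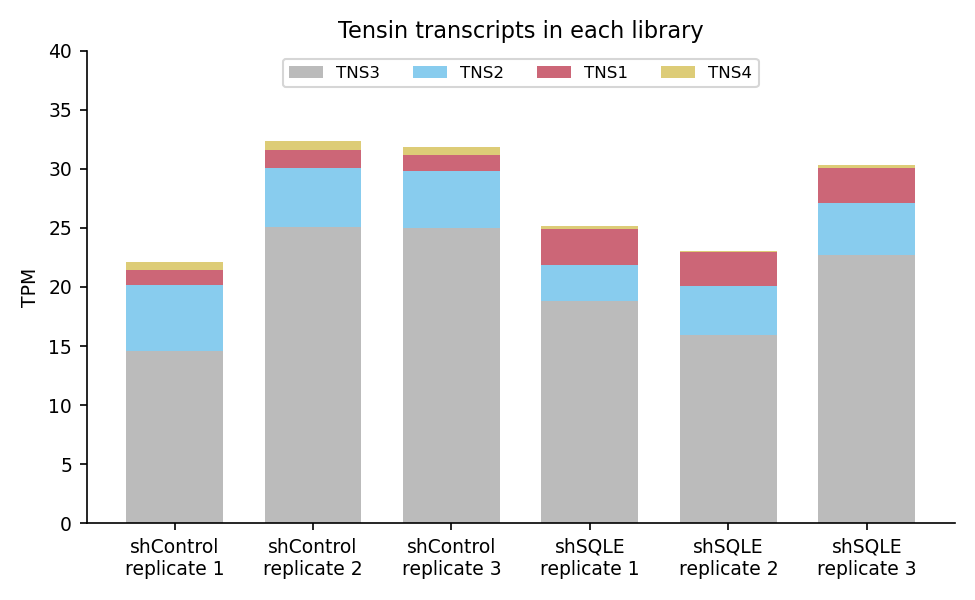
Stacked TPM of the 4 tensins in each of the 6 libraries (grey TNS3, blue TNS2, red TNS1, yellow TNS4). The red segment is 1.28 to 1.53 TPM in the shControl libraries and 2.85 to 3.02 TPM in the shSQLE libraries, while the full height overlaps between the groups.

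The link from integrin to actin was covered by TLN1 and VCL. TLN1 (ENSG00000137076, chr9:35696948-35732195) encodes talin, which binds and activates integrins. Its normalized counts were 3813, 3677 and 3545 in shControl and 3431, 3407 and 4073 in shSQLE. The groups overlapped, with shSQLE replicate 3 above and the other shSQLE libraries below all controls, and the log2 fold change was -0.02 (SE 0.11). TLN1 held 97.4% ± 0.367 of talin TPM in shControl and 97.2% ± 0.168 in shSQLE, the rest being TLN2.

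VCL (ENSG00000035403, chr10:73995193-74121363) encodes vinculin, which reinforces talin's hold on actin. Normalized counts were 2838, 3984 and 3769 in shControl and 3934, 3815 and 4564 in shSQLE, with a log2 fold change of 0.22 (SE 0.15). The low mean of the controls came from shControl replicate 1, and without it the log2 fold change was 0.08. Set against its relative CTNNA1, α-catenin of cell-cell junctions, VCL made up 42.5% ± 2.704 of their family's TPM in shControl and 49.1% ± 1.73 in shSQLE. Here every shSQLE library lay above every control. CTNNA1 had a log2 fold change of -0.16 (SE 0.10, edgeR adjusted p = 0.558), and of -0.21 without shControl replicate 1, where it was called (edgeR adjusted p = 0.0425). VCL overlaps AP3M1 on the opposite strand, which had 6917 counts against 23034.

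Of the scaffolds, PXN and BCAR1 were above their controls in mean, and ZYX was level. PXN (ENSG00000089159, chr12:120210439-120265771) encodes paxillin, a docking platform for FAK, vinculin and the parvins. Its normalized counts were 5269, 5064 and 5036 in shControl and 5338, 5431 and 5272 in shSQLE. Every shSQLE library lay above every control, by the narrowest of margins (5271.66 against 5269.11), for a log2 fold change of 0.06 (SE 0.09). PXN held 57.5% ± 1.35 of paxillin-family TPM in shControl and 57.4% ± 0.67 in shSQLE. Its relative LPXN, leupaxin, went from 30.0% ± 2.42 to 33.7% ± 1.08 with no overlap, at a log2 fold change of 0.23 (SE 0.10, edgeR adjusted p = 0.351). TGFB1I1, which encodes Hic-5, had a log2 fold change of -0.44 (SE 0.24, edgeR adjusted p = 0.482), and was called with GC content and length offsets (-0.43, edgeR adjusted p = 0.0253).

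BCAR1 (ENSG00000050820, chr16:75228181-75268053) encodes p130Cas, a scaffold whose stretching and phosphorylation recruit CRK. Normalized counts were 2582, 1699 and 1653 in shControl and 2728, 2831 and 2234 in shSQLE. shControl replicate 1 lay between the shSQLE libraries, and the other controls lay below all of them. The log2 fold change was 0.39 (SE 0.19, 1.31-fold), the second highest of the members, and 0.63 without that control. BCAR1 was called with GC content and length offsets, where 2 members and 17.5% of all genes passed, and without shControl replicate 1, where 2 members and 33.9% of all genes passed. BCAR1 supplied 99.6% of Cas-family TPM in shControl and 99.8% in shSQLE. NEDD9, EFS and CASS4 had few counts and did not pass the filter.

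ZYX (ENSG00000159840, chr7:143381295-143391111) encodes zyxin, a LIM protein of stress fibres and mature adhesions. Its normalized counts were 1909, 1326 and 1199 in shControl and 1542, 1602 and 1347 in shSQLE. The groups overlapped because of shControl replicate 1, and the log2 fold change of 0.02 (SE 0.18) became 0.25 without it. ZYX held 41.6% ± 2.16 of zyxin-family TPM in shControl and 39.0% ± 1.18 in shSQLE, and TRIP6 held 39.4% ± 2.703 and 42.0% ± 1.70. The remaining relatives had log2 fold changes of -0.26 for LPP, 0.11 for WTIP, 0.17 for LIMD1, 0.21 for TRIP6 and 0.27 for AJUBA, and with all 6 libraries none was called by edgeR. Without shControl replicate 1, TRIP6 (0.45, adjusted p = 0.00575) and LPP (-0.40, adjusted p = 0.00595) were called by edgeR, and with the offsets LIMD1 was (0.25, adjusted p = 0.0419). For AJUBA, which had the smallest p of them with all libraries (adjusted p = 0.336), all shSQLE libraries lay above the controls.

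ILK and PARVA encode partners in the complex of ILK, PINCH and parvin. ILK (ENSG00000166333, chr11:6603708-6610874), a pseudokinase that holds the complex together, had normalized counts of 2374, 1629 and 1633 in shControl and 1768, 1884 and 1698 in shSQLE. Again shControl replicate 1 was the highest library. The log2 fold change was -0.07 (SE 0.16) and turned to 0.13 without it. ILK overlaps TAF10 on the opposite strand, which had 1521 counts against 10892. PARVA (ENSG00000197702, chr11:12377563-12535356), α-parvin, which binds actin, had normalized counts of 477, 522 and 531 in shControl and 490, 475 and 496 in shSQLE. The groups overlapped by shControl replicate 1, and the log2 fold change was -0.07 (SE 0.11).

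PARVA was a minor parvin in transcript level, at 23.6% ± 5.00 of parvin TPM in shControl and 25.5% ± 2.41 in shSQLE. With the longest coding transcript of each gene in place of the canonical one, its share was 9.37% and 10.6%. PARVB, which overlaps SAMM50 on the same strand, held 62.6% ± 2.74 and 57.3% ± 2.27 of parvin TPM, lower in every shSQLE library. From counts not divided by length its share overlapped between the groups, as did its normalized counts. Its log2 fold change was -0.34 (SE 0.18, edgeR adjusted p = 0.448). PARVG had a log2 fold change of 0.10 (SE 0.25, edgeR adjusted p = 0.913). The summed parvin TPM was 36.9 ± 1.61 in shControl and 30.7 ± 1.102 in shSQLE, with all shSQLE libraries below the controls. These shares contain the members' own changes, and with 3 against 3 libraries an exact permutation test cannot give a p under 0.1, so none is given.

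In level per length, the members spanned from ILK at 153 ± 12.2 TPM to TNS1 at 1.39 ± 0.127 TPM in shControl. ILK and PXN (143 ± 16.2 TPM) overlapped over the libraries, as did VCL (95.1 ± 27.2) and ZYX (94.5 ± 10.0), and BCAR1 (68.9 ± 7.75) and TLN1 (62.0 ± 6.53). TNS3, PARVA (8.66 ± 1.62), TNS2 and TNS1 each lay apart from their neighbour. In shSQLE, PXN (142 ± 8.66 TPM) and ILK (140 ± 4.64 TPM) overlapped in the leading positions and so did VCL (104 ± 18.2) and ZYX (92.4 ± 1.58). BCAR1 (87.3 ± 4.65 TPM) lay apart from TLN1 (58.6 ± 10.6 TPM), and the order of the remaining members was the same as in shControl. The level of BCAR1 depended on the transcript length used. With the longest coding transcript of each gene its mean was 82.2 TPM in shControl and 104.2 TPM in shSQLE. In shSQLE that placed it above VCL (102.5 TPM) and ZYX (91.4 TPM).

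**Figure D3:**
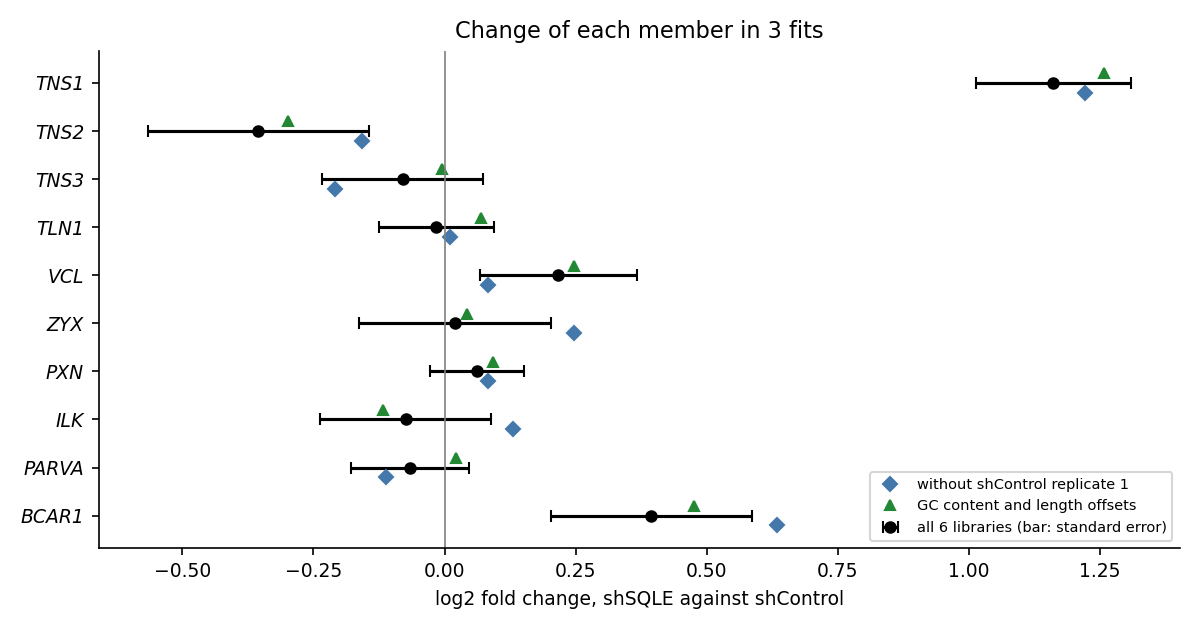
Log2 fold change of each member, shSQLE against shControl, with all 6 libraries (black, bar: standard error), with GC content and length offsets (green) and without shControl replicate 1 (blue). TNS1 lies at 1.16, 1.26 and 1.22 in these fits, whereas BCAR1 moves from 0.39 to 0.63 and ZYX from 0.02 to 0.25 when the control is left out.

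The deviation of shControl replicate 1 from the other controls was correlated with base composition. The log2 ratio of shControl replicate 1 to the mean of replicates 2 and 3 was 0.62 for BCAR1, 0.60 for ZYX, 0.54 for TNS2 and 0.54 for ILK, but -0.45 for VCL, -0.43 for TNS3 and -0.14 for PARVA. It was 0.18 for TNS1, 0.08 for TLN1 and 0.06 for PXN. Over the 10 members the ratio had a Pearson r of 0.713 and a Spearman rho of 0.721 with the GC content of the canonical transcript, which ran from 44.04% in PARVA to 65.46% in BCAR1. Over 12447 genes it had an r of 0.715, close to that of the members. The members were richer in GC, with a median of 57.1% against 48.4% for all genes. For shSQLE replicate 3 against replicates 1 and 2, r with GC content was -0.522 over the members and -0.41 over all genes. The members did not all follow the trend: ILK (55.03%) and TNS3 (55.46%) had near-equal GC content but ratios of opposite sign. Transcript length was not set against the ratio, and its cause was not tested. These correlations are descriptions across genes that share the same libraries. Without shControl replicate 1 the log2 fold changes not given above were 1.22 for TNS1, 0.01 for TLN1, 0.08 for PXN and -0.11 for PARVA. With that library left out, the libraries did not overlap for 7 members, of which TNS1, ZYX, PXN, ILK and BCAR1 were higher and TNS3 and PARVA lower, beside 59.9% of all genes. With smooth offsets for GC content and length in each library, the log2 fold change was 1.26 for TNS1, 0.47 for BCAR1 and 0.02 for PARVA.

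**Figure D4:**
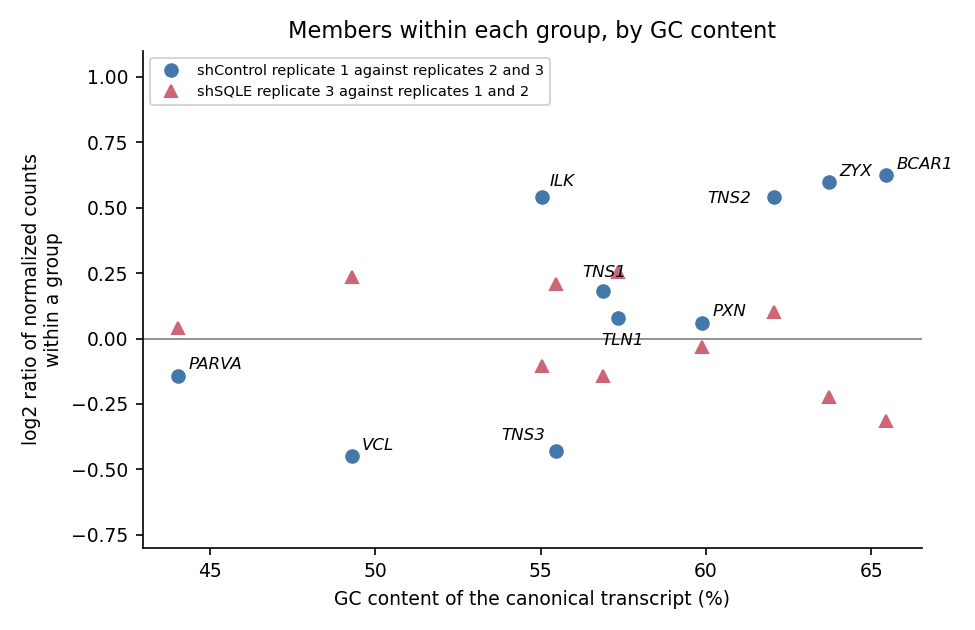
Log2 ratio within a group of the 10 members against the GC content of the canonical transcript (%). Blue points give shControl replicate 1 against replicates 2 and 3, from -0.45 (VCL) to 0.62 (BCAR1), with r = 0.713, and red triangles give shSQLE replicate 3 against replicates 1 and 2, with r = -0.522.

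Beyond the members, 132 other focal adhesion and actin genes were described in 9 lists. Of the 113 that were tested, 60 lay above and 53 below their shControl level, the median being 0.01 on the log2 scale, and edgeR called 0 of them. At an unadjusted p under 0.05 there were 14, beside 14.7% of all genes. DESeq2 called 2 of 130 list genes, beside 4.46% of all genes in its fit, namely FERMT1, kindlin-1, lower, and RAP1A, a GTPase that promotes talin recruitment, higher. With GC content and length offsets, edgeR called 22 of 113 list genes (7 lower, 15 higher), beside 17.5% of all genes. Without shControl replicate 1 it called 33 of 114 (16 lower, 17 higher), beside 33.9% of all genes.

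Among 17 tested genes of the list of integrin tail binders and their inhibitors, which also holds the GTPase RAP1A, 6 were lower and 11 higher. RAP1A had the smallest p of them, at 0.57 (SE 0.12, edgeR adjusted p = 0.0538) on the log2 scale, with all shSQLE libraries above the controls. The 6 tensin partners and TNS4 were 2 lower and 4 higher, and the 6 partners and paralogs of the ILK complex were 3 lower and 3 higher. In the latter list PPM1F, a phosphatase of the PAK kinases, had the smallest p, at a log2 fold change of 0.31 (edgeR adjusted p = 0.254).

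Of 17 LIM domain adaptors 6 were lower and 11 higher, led by PDLIM7 at -0.55 (edgeR adjusted p = 0.336). Of 11 paxillin paralogs and partners 8 were lower and 3 higher, led by ARHGEF6, the exchange factor α-PIX, at -0.75 (edgeR adjusted p = 0.189). The 7 BCAR1 paralogs and partners tested were 6 lower and 1 higher, led by RAPGEF1, an exchange factor for RAP1, at -0.28 (edgeR adjusted p = 0.278).

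The 11 vinculin and actin linkers were 4 lower and 7 higher, and their smallest p belonged to CTNNA1, given above. Among 17 focal adhesion kinases and phosphatases 8 were lower and 9 higher, led by PAK3 at -0.92 (edgeR adjusted p = 0.182). Among 21 actin and SRF target genes 10 were lower and 11 higher, led by CNN3, calponin-3, at 0.47 (edgeR adjusted p = 0.157). No list gene passed the threshold in the fit of all 6 libraries by edgeR, so none is called changed here. The 9 genes with the smallest p of their lists were also looked up in other fits by edgeR. With the offsets 17.5% of all genes were called, and 33.9% without shControl replicate 1. TNS4, RAP1A, PPM1F, PAK3 and CNN3 were called in both of these fits. PDLIM7 was called only with the offsets, and ARHGEF6, RAPGEF1 and CTNNA1 only without that library. As the 9 genes were picked by p on the same libraries, nothing is read from these calls.

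Genes whose pattern was most like that of TNS1 were ranked by Pearson r of log2 CPM, counts scaled by the TMM effective library size, over the 6 libraries, among 9876 genes. EI24, which encodes an endoplasmic reticulum protein, had r = 0.9964, SUMO3 had 0.9963, CLNS1A had 0.9947 and LMNB2, lamin B2, had 0.9944. After the group means were removed, r fell to 0.875, 0.915, 0.857 and 0.798, in that order. The points share libraries and groups. Among the members, PXN (0.857) and BCAR1 (0.755) had the highest r with TNS1, and PARVA (-0.633) and TNS2 (-0.537) the lowest. This order changed once the group means were removed. ZYX was then highest (0.828), beside BCAR1 (0.772) and PXN (0.743). PARVA stayed lowest (-0.745), TNS2 turned to 0.376, and VCL went from 0.453 to -0.65.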

How the data were processed

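Gene counts of 6 libraries (3 shSQLE, 3 shControl) were analysed. According to the labels and methods of the authors, poly(A) RNA was sequenced as 151 bp paired reads, trimmed with fastp 0.20.0, aligned to hg38 with STAR 2.7.9a and counted with featureCounts 2.0. The authors deposited unnormalized counts for each gene. The annotation release and the use of strand are not given in the sources used here. Samples were grouped by the genotype in the labels.

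Of 19937 genes, 12450 passed filterByExpr and were tested with edgeR 4.0.16 (R 4.3.3): TMM scaling, quasi-likelihood F test, condition alone in the design, p-values adjusted over all genes after Benjamini-Hochberg, threshold 0.05. The common dispersion was 0.0267. Normalized counts are counts divided by effective library size. TPM used canonical transcript lengths of GENCODE release 44. Patterns like that of TNS1 were ranked on log2 CPM (TMM) with a prior count of 2, among genes averaging 100 or more normalized counts. Promoter windows came from RefSeq. Alternatives were DESeq2 1.42.0, other size factors, library size alone, other filters, a replicate block, smooth GC content and length offsets (mgcv 1.9.3), and each library left out.

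The genes and lists were chosen with earlier results of these data known. Named were all members and tested paralogs, the gene with the smallest p of each list (every called gene if any), and the 5 genes most like TNS1, of which 1 is not reported here. FERMT1 was named after its values were seen, as was the overlap of groups without shControl replicate 1. On simulated counts with known changes for this comparison (12448 genes tested), 89.9% of genes with a log2 change of 1 and 100% of those with 2 were recovered, and 4.52% of calls fell on unchanged genes. The simulation had no trend on GC content.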

Additional observations from a re-analysis of the deposited data

How the results depend on the processing

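TNS1 kept its direction in all 13 alternatives and its call in all but the one without shSQLE replicate 1. The direction turned in at least 1 alternative for TNS3 (0.01), TLN1 (0.07), ZYX (-0.10), ILK (0.13) and PARVA (0.02), given as the farthest value from the reported sign. The number of genes changed (400) became 714 with DESeq2 and 2175 with GC content and length offsets, and ranged from 109 to 4264 when 1 library was left out, where shControl replicate 1 gave the 4264. The share of these calls that were higher in shSQLE was 11.5%, and became 22.1% with DESeq2, 40.6% with the offsets and 46.1% without shControl replicate 1. Members called (1) became 2 with the offsets and ranged from 0 to 2 when 1 library was left out.

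In the lists, where the reported count is 0, calls by DESeq2 and with median-of-ratios size factors fell only in the list of integrin tail binders and their inhibitors. That list also holds other genes, such as RAP1A. DESeq2 called 2 of its genes and median-of-ratios size factors 1, beside 4.46% and 3.21% of all genes. With the offsets the calls were 1 for tensin partners and TNS4, 4 for the list of integrin tail binders and their inhibitors, 1 for the ILK complex, 5 for LIM domain adaptors, 2 for paxillin partners, 1 for vinculin and actin linkers, 2 for kinases and phosphatases and 6 for actin and SRF targets. Leaving out 1 library, calls ranged from 0 to 1, 5, 3, 4, 3, 4, 4 and 7 in these lists, and from 0 to 2 for BCAR1 partners. Every upper value came without shControl replicate 1. Beside these counts, edgeR called 17.5% of all genes with the offsets and 33.9% without shControl replicate 1. Nothing is read from the list counts. The TNS1 share of tensins, 6.48 points higher in shSQLE, was 8.61 points higher from counts not divided by length. Fits without 1 library rest on 2 libraries in that group.

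Whether the replicate numbers pair the samples is not known. The deviations of same-numbered libraries from their group means had correlations of 0.138, -0.433 and 0.543, and not every library correlated best with its own number. As shControl replicate 1 stood apart from the other controls, these correlations cannot decide it. With the replicate block 396 genes were called, and no call of a member or list gene changed. The cause of these differences was not tested. TNS2 (918 counts over all libraries) and TNS1 (961) have the fewest counts of the members, so counting error weighs most on these genes. With scaling by library size alone, r with TNS1 was 0.924 for EI24, 0.968 for SUMO3, 0.994 for CLNS1A and 0.938 for LMNB2.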
